A study of Mus musculus with 194 samples.

Results

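The 1 hr response of the dorsal striatum (DS) to a cocaine challenge was examined in 7 of the 194 libraries of the series, 4 from mice killed 1 hr after the challenge and 3 from abstinent mice killed at 0 hr. The libraries were chosen by their labels for structure, experience and time, and second libraries of some of the same mice from another sequencing run were set aside. All 7 came from male C57BL/6OLAHSD mice, 6 to 7 weeks old on arrival, that had received saline on 3 habituation days and then 20 mg/kg cocaine intraperitoneally once a day for 5 days, followed by 21 days without drug. The 1 hr mice then received a single further 20 mg/kg dose. The 0 hr mice were taken from the home cage with no injection on that day, so the effects of cocaine, of the injection and of the test arena cannot be told apart in this comparison. Each library was a 3′-RNA-seq library from 100 ng of RNA of microdissected DS tissue, which holds many cell types. The question was which genes of the DS change within 1 hr when a mouse with a history of cocaine meets the drug again.

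Cocaine blocks the reuptake of dopamine, and dopamine acts on the GABAergic projection neurons of the striatum through D1 and D2 receptors. Receptor and calcium signals reach the nucleus through cAMP and MAP kinase pathways, which act on CREB and on serum response factor already bound to DNA. The genes that respond without new protein synthesis are the immediate-early genes (IEGs), which encode transcription factors, phosphatases and other brakes on the same signals, and proteins that act at the synapse. CREB binds the cAMP response element (CRE) and serum response factor binds the CArG box.

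RefSeq promoter windows on GRCm38.p6 were available for 48 of the 56 genes that rose at 1 hr, as 71 windows of the 250 bases before a start site, because some genes have several starts. The core letters of the CRE, TGACG on either strand, were present in the windows of 27 of these 48 genes (56.2%), compared with 30.5% of 9921 tested genes with windows. The palindromic CRE, TGACGTCA, which contains the core on both strands, was present in 7 of 48 genes (14.6%), compared with 3.13% of all, and those genes were Btg2, Dusp1, Arl5b, Slc25a25, Arl4d, Zdbf2 and Plk2. A CArG box was found in 3 of 48 (6.25%), namely Egr2, Dusp5 and Rnd3, compared with 1.35% of all. The AP-1 letters TGANTCA were in the windows of 0 of 48 genes, compared with 5.23% of all, and the EGR letters GCGTGGGCG in those of 1, Plekhf1, compared with 1.21% of all. Counted by window, the CRE core was in 45.1% of the windows of these genes and 25.9% of 12838 windows of all tested genes. These matches describe the letters and carry no test. The windows of 4 genes are printed from the 5′ end because they span the kinds of match found, with the CRE core and the CArG box in capitals. The Fos window is chr12:85473640-85473889 on the plus strand, directly before the gene, which lies at chr12:85473890-85477273. The Nr4a1 window is chr15:101266596-101266845 on the plus strand, the Egr2 window chr10:67537619-67537868 on the plus strand, and the Dusp1 window chr17:26508473-26508722 on the minus strand.
Fos: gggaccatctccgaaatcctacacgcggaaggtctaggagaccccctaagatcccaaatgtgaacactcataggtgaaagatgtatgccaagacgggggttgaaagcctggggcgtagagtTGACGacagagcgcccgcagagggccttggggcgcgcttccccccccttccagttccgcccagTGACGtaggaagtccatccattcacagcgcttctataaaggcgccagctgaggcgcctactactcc
Nr4a1: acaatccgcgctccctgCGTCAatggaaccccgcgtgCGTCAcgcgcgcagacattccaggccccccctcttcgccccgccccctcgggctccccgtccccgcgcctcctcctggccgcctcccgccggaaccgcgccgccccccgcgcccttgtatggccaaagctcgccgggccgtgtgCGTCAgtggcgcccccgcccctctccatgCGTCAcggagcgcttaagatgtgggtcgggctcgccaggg
Egr2: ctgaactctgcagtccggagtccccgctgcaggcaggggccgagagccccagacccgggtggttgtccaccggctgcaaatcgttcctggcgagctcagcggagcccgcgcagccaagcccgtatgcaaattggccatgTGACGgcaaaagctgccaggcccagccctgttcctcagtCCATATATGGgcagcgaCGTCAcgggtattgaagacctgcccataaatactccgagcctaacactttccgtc
Dusp1: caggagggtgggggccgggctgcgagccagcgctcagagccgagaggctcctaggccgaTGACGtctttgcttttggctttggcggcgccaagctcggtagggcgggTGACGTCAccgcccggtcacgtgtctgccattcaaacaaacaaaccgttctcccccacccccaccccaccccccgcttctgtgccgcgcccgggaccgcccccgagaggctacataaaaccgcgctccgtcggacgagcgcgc
Fos held the CRE core at 129 and 66 bases before the start, the nearer one in the arrangement TGACGT. Nr4a1 held 4 CRE cores, all on the opposite strand. Egr2 has 5 start windows in RefSeq, and the one printed held a CArG box 72 bases before the start between CRE cores at 111 and 55 bases. Of its other 4 windows, 2 held the same matches at other distances, 1 held a CArG box alone and 1 held neither. Dusp1 held the palindromic CRE at 143 bases.

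The 7 libraries held 3401994 to 4649668 counts, and all came from 1 sequencing run. They were fitted together with the 4 libraries at 2 hr and the 4 at 4 hr after the challenge, which share the estimate of the spread, and 12641 genes passed the filter on low counts. Levels are given as CPM, counts divided by the library total after TMM scaling. The tissue label was checked by markers against the 0 and 1 hr challenge libraries of other structures, on CPM without TMM scaling. The 30 striatal projection neuron genes in the table summed to 19820 to 21460 CPM in the DS, 11770 to 13790 CPM in the nucleus accumbens, 3453 to 4128 CPM in the limbic cortex and 3281 to 3605 CPM in the amygdala. The 8 cortical neuron markers summed to 162.3 to 191.6 CPM in the DS and 1711 to 1848 CPM in the limbic cortex. A single 1 hr library, replicate 4, stood apart in major histocompatibility complex class II genes, which antigen-presenting cells use to display peptides. It held H2-Aa at 51.0, H2-Ab1 at 48.1, H2-Eb1 at 22.2 and Cd74 at 36.0 CPM, whereas none of the other 14 libraries exceeded 3.56 CPM for any of these 4 genes. The list of class II and macrophage markers summed to 67.0 to 69.0 CPM at 0 hr, 71.0 to 78.9 CPM in the other 1 hr libraries and 231 CPM in replicate 4, a sum that those 4 genes carried. Other members of the list lay within the range of the other 14 libraries in replicate 4, with H2-DMa at 44.5 CPM (32.3 to 49.2), H2-DMb1 at 3.14 CPM (1.03 to 4.76), Mrc1 at 1.21 CPM (0.824 to 4.68) and Pf4 at 2.90 CPM (1.38 to 4.06), while Lyz2 was at 18.6 CPM (9.72 to 16.0). Ciita, the class II transactivator, had 0 counts there. The libraries of the nucleus accumbens, limbic cortex and amygdala that carry the same cohort and animal number as replicate 4 held H2-Aa at 3.27, 6.25 and 0.94 CPM. Of all genes tested, only H2-Aa, H2-Ab1 and C3 were at least 4-fold above every other 1 hr library in replicate 4, and none of the genes that rose met that mark.

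At 1 hr after the challenge, 56 of 12641 genes rose (0.443%) and 0 fell (0%) by edgeR's quasi-likelihood test with Benjamini-Hochberg adjustment, at an adjusted p under 0.05 and a fold change over 1.2. DESeq2 called 53 genes higher and 0 lower. At an unadjusted p under 0.05, 407 genes were higher (3.22%) and 285 lower (2.25%), and the lowest edgeR adjusted p among genes with a lower level was 0.0827, for the cilium gene Spef2. The risen genes were up by 0.38 to 2.90 on the log2 scale with a median of 0.90, and the median over all genes tested was -0.0014. Of the 56, 23 rose more than 2-fold and 7 more than 4-fold. The 1 hr and 0 hr libraries did not overlap in 55 of the 56, where 514 of all genes (4.07%) had every 1 hr library above every 0 hr library, and the exception was Sgk1. In 437 genes (3.46%) every 1 hr library lay below every 0 hr library. The tissue was bulk, so a rise of RNA per cell and a change in the number of cells of a type cannot be told apart.

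**Figure D1:**
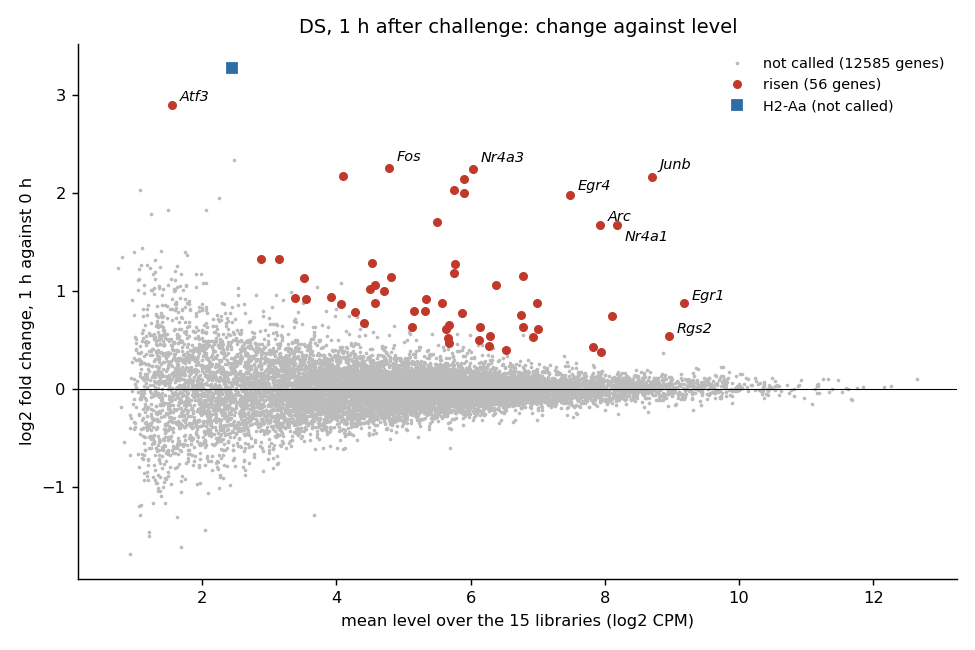
Log2 fold change at 1 hr against 0 hr for each of the 12641 genes tested in the DS, plotted against its mean level over the 15 libraries in log2 CPM. Red points are the 56 genes that rose, grey points were not called, and the blue square is H2-Aa, whose log2 fold change of 3.27 came from replicate 4 and was not called. The risen genes span low levels such as Atf3 to high levels such as Egr1 and Rgs2, and no gene is called below 0.

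Without 1 hr replicate 4, 43 genes rose and 0 fell by edgeR. The log2 fold changes of all 56 genes remained positive, the largest shift was 0.21 for Btg2, and 43 of the 56 kept the call. The 13 that lost it were Gpr3, Setd4, Sik1, Rnd3, Spty2d1, Gpr19, Sgk1, Zdbf2, Peli1, Mcl1, Cyp51, Atf4 and Plk2. Among the 15 genes with the largest increase, Gpr3 alone lost its call, with a log2 fold change of 1.16 and an edgeR adjusted p of 0.089. H2-Aa itself was not called with all libraries, at an edgeR adjusted p of 0.0631. Replicate 3 at 0 hr was the lowest of its group for 38 of the 56 genes, compared with 34.2% of all genes tested, and without it 29 genes rose, 27 of them among the 56. Without 0 hr replicate 2, 35 genes rose. At 1 hr, replicate 2 was the highest of its group for 25 of the 56 genes and replicate 4 the lowest for 21, compared with 25% and 24.8% of all genes tested. Hemoglobin transcripts, which mark blood left in the tissue, summed with the other erythroid and neutrophil markers to 593 to 725 CPM at 0 hr and 613 to 1306 CPM at 1 hr. The highest library was 1 hr replicate 1, with Hbb-bs at 832 CPM where the other 6 libraries held 391 to 496 CPM. Of the 5 tested members of that list 4 were higher at an unadjusted p under 0.05 and none was called. Without 1 hr replicate 1, 49 of the 56 genes kept the call.

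Of 39 tested genes of the inducible transcription factor list, 12 rose and none fell, where 0.443% of all genes rose, with a median log2 fold change of 0.34, and 32 of the 39 were positive. The list summed to 1875 to 2545 CPM at 0 hr and 4160 to 5110 CPM at 1 hr.

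The AP-1 genes, whose products pair as Fos and Jun family dimers, rose in 5 members. Junb, the most abundant, was at 192, 270 and 180 CPM at 0 hr and at 892, 1283, 885 and 777 CPM at 1 hr. All 4 challenged mice lay well above the 3 abstinent mice, and the level was 4.49-fold higher (95% interval 3.7 to 5.45, edgeR adjusted p = 5.98e-13). Fos was at 9.15, 28.4 and 7.11 CPM at 0 hr and at 45.8, 113, 59.0 and 59.9 CPM at 1 hr. The groups did not overlap, but both were spread wide, 4.77-fold apart with an interval of 3.03 to 7.49. The edgeR adjusted p for Fos was 5.44e-05, while DESeq2 gave 0.074. Fosb, which also encodes the stable isoform ΔFosB, was at 19.6, 18.0 and 13.1 CPM at 0 hr and at 59.9, 78.6, 74.2 and 63.8 CPM at 1 hr, 4.08-fold higher (edgeR adjusted p = 3.67e-07). Fosl2, encoding Fra-2, was at 36.8, 26.1 and 10.3 CPM at 0 hr and at 94.6, 96.4, 102 and 98.9 CPM at 1 hr. The 4 challenged mice were close together and the abstinent mice were not, with 0 hr replicate 3 the lowest, and the fold was 3.99 (interval 3.02 to 5.27). Jun rose least of these genes, by 0.80 ± 0.16 (SE) on the log2 scale.

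Atf3, a stress-inducible factor of the ATF and CREB family, had the largest fold and the lowest level. It was at 1.92, 0 and 0.459 CPM at 0 hr and at 2.94, 9.34, 9.87 and 3.63 CPM at 1 hr. The groups did not overlap, with a log2 fold change of 2.90 ± 0.66 (SE) and an edgeR adjusted p of 0.0271, but DESeq2 gave 0.448 and 5 of the 17 alternatives in which it could be tested lost the call.

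The zinc-finger factors of the EGR family rose in 3 of 4 members. Egr2 was at 33.6, 37.3 and 14.7 CPM at 0 hr and at 137, 146, 119 and 104 CPM at 1 hr, 4.43-fold higher (interval 3.44 to 5.71, edgeR adjusted p = 5.61e-10). Egr4 was at 91.1, 91.9 and 51.8 CPM at 0 hr and at 290, 340, 335 and 268 CPM at 1 hr, 3.94-fold higher (interval 3.28 to 4.72, edgeR adjusted p = 7.59e-13). Egr1, already abundant in abstinent mice at 520, 483 and 264 CPM, reached 792, 730, 831 and 750 CPM and rose 1.84-fold. For all 3 genes every challenged mouse lay above every abstinent mouse, and 0 hr replicate 3 was the lowest library. Egr3 was at 281 to 324 CPM at 0 hr and 335 to 385 CPM at 1 hr, a log2 difference of 0.20 ± 0.10 (SE) that did not pass the test (edgeR adjusted p = 0.906). Against the same abstinent mice Egr3 was higher by 0.54 at both 2 hr (edgeR adjusted p = 0.00191) and 4 hr (edgeR adjusted p = 0.0115). Nab2, a corepressor that binds EGR proteins, rose by 0.50 ± 0.11 (SE).

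The orphan nuclear receptors Nr4a1 and Nr4a3 rose. Nr4a3 was at 26.2, 23.9 and 13.5 CPM at 0 hr and at 98.7, 101, 105 and 98.9 CPM at 1 hr, 4.74-fold higher (interval 3.8 to 5.93, edgeR adjusted p = 4.56e-12), and the 4 challenged mice lay close together. Nr4a1 was at 192, 241 and 107 CPM at 0 hr and at 538, 677, 547 and 530 CPM at 1 hr, 3.19-fold higher (interval 2.43 to 4.19). Their relative Nr4a2 stayed low, at 3.19 to 4.06 CPM at 0 hr and 4.12 to 9.07 CPM at 1 hr, and was not called. Npas4, a neuron-restricted factor that responds to calcium, was at 7.80 to 13.4 CPM and 13.2 to 33.0 CPM, with a log2 difference of 1.08 ± 0.30 (SE) and an edgeR adjusted p of 0.184.

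**Figure D2:**
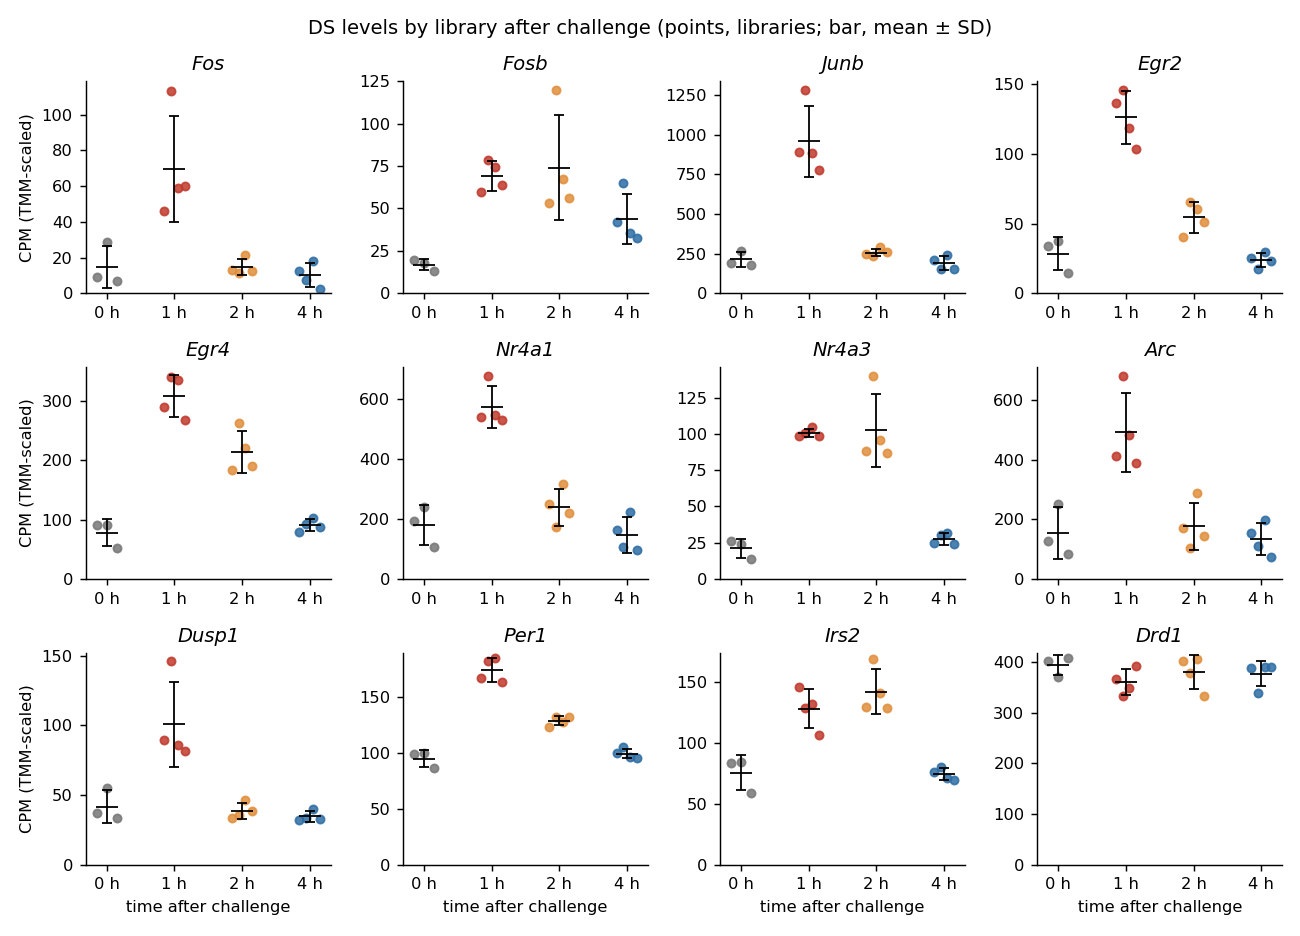
Level of 12 genes in each DS library at 0, 1, 2 and 4 hr after the challenge, in TMM-scaled CPM on linear axes from 0, with 1 point per library and a bar for the mean ± SD (n = 3 at 0 hr and 4 at each later time). Junb, Egr2, Nr4a1, Arc and Dusp1 stand highest at 1 hr and lie near their 0 hr levels by 4 hr, Irs2 stays as high at 2 hr, Nr4a3 and Fosb have a higher mean at 2 hr only with replicate 2, and Drd1 shows no such rise.

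A second list holds genes that restrain signaling or shorten RNA lifetime. Of 45 tested members of the list of signal feedback and RNA decay regulators, 11 rose and none fell, where 0.443% of all genes rose, with a median log2 fold change of 0.22. Btg2, which recruits a deadenylase complex to messenger RNA, was at 8.30, 11.9 and 4.82 CPM at 0 hr and at 25, 63.7, 40.6 and 20.3 CPM at 1 hr. The groups did not overlap but the challenged mice differed more than 3-fold among themselves, and the fold was 4.5 (interval 3 to 6.73, edgeR adjusted p = 1.32e-05). 4 phosphatases that remove phosphate from MAP kinases rose, by 1.28 ± 0.16 for Dusp1, 1.13 ± 0.22 for Dusp5, 0.78 ± 0.13 for Dusp6 and 0.75 ± 0.13 for Dusp14 (log2 fold change ± SE). Dusp1 was at 37.0, 55.1 and 33.2 CPM at 0 hr and at 89.6, 146, 85.6 and 81.9 CPM at 1 hr, with 1 hr replicate 2 well above the rest. Gadd45b, a stress sensor linked to DNA demethylation, rose by 0.92 ± 0.15, and Rgs2, which shortens G protein signaling, rose from 326 to 478 CPM over the 0 hr mice to 599 to 651 CPM over the 1 hr mice. DESeq2 gave Rgs2 an adjusted p of 0.104. The kinases Sik1, Pim3 and Plk2 and the pseudokinase Trib1 rose by 0.93, 0.62, 0.38 and 0.92 on the log2 scale, and of these Sik1 and Plk2 lost the call without 1 hr replicate 4. Over 18 alternatives the call was lost in 10 for Sik1 and in 7 for each of Pim3, Plk2 and Trib1. Plk3 and Ppp1r15a, singled out after their values were seen as the next members by p-value, had log2 differences of 0.99 and 0.65 and did not pass.

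Of 36 tested genes of the list of synaptic and secreted activity-regulated effectors, 8 rose and none fell, where 0.443% of all genes rose, with a median log2 fold change of 0.25. The list was built from genes that neuronal activity induces, and several of the risen members act inside the cell rather than at synapses or as secreted proteins. Arc, a capsid-like protein that drives AMPA receptor endocytosis at synapses, was at 128, 251 and 85.1 CPM at 0 hr and at 414, 682, 483 and 389 CPM at 1 hr. Every challenged mouse exceeded every abstinent mouse, 3.2-fold on the fitted scale (interval 2.24 to 4.58), with an edgeR adjusted p of 0.000153 and a DESeq2 adjusted p of 0.0627. Tiparp, a mono-ADP-ribosyltransferase, was at 25.3, 36.8 and 21.6 CPM at 0 hr and at 99.8, 91.8, 79.8 and 89.7 CPM at 1 hr, 3.25-fold higher (edgeR adjusted p = 1.42e-09). The remaining 6 were Plekhf1, Gpr3, Sertad1, Gm13889, Arl4d and Hbegf, which rose by 0.64 to 1.33 on the log2 scale. Gpr3 encodes a receptor that raises cAMP without a ligand, Sertad1 a transcription cofactor, Arl4d a small GTPase and Hbegf a ligand of the EGF receptor. Plekhf1 and Gpr3 were low genes, at 3.19 to 6.34 CPM at 0 hr and 6.04 to 16.7 CPM at 1 hr.

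Hormone-responsive, clock and chaperone genes were counted in the same way, against the 0.443% of all genes that rose. Of 29 tested glucocorticoid responsive genes 4 rose, which were Dusp1, Per1, Cdkn1a and Sgk1, with a list median of 0.12. Per1, a clock gene that also answers to CREB, was at 99.2, 99.7 and 86.2 CPM at 0 hr and at 167, 182, 185 and 164 CPM at 1 hr, 1.83-fold higher (interval 1.64 to 2.05, edgeR adjusted p = 3.89e-09). It was the sole gene called among 19 clock genes, whose median was -0.05. Sgk1, a serum and glucocorticoid regulated kinase, was at 86.0, 87.0 and 146 CPM at 0 hr and at 167, 145, 169 and 168 CPM at 1 hr. The groups overlapped, because 0 hr replicate 3 lay above 1 hr replicate 2, and neither DESeq2 (adjusted p = 0.235) nor the edgeR fit without 1 hr replicate 4 (adjusted p = 0.056) called it. Among cytosolic chaperones 1 of 25 rose, the Hsp40 protein gene Dnajb5, and the list median was -0.11. Of the 25, 5 were positive, and 2 were higher and 4 lower at an unadjusted p under 0.05. Of 20 tested genes of the ER chaperone list 1 rose, Atf4, with a list median of -0.17. Atf4 encodes the translationally controlled transcription factor of the integrated stress response and is not itself a chaperone gene. Of the 20, 3 were positive, and 2 were higher and 3 lower at an unadjusted p under 0.05. Over all 12641 genes 6277 were positive, and 3.22% were higher and 2.25% lower at that p.

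**Figure D3:**
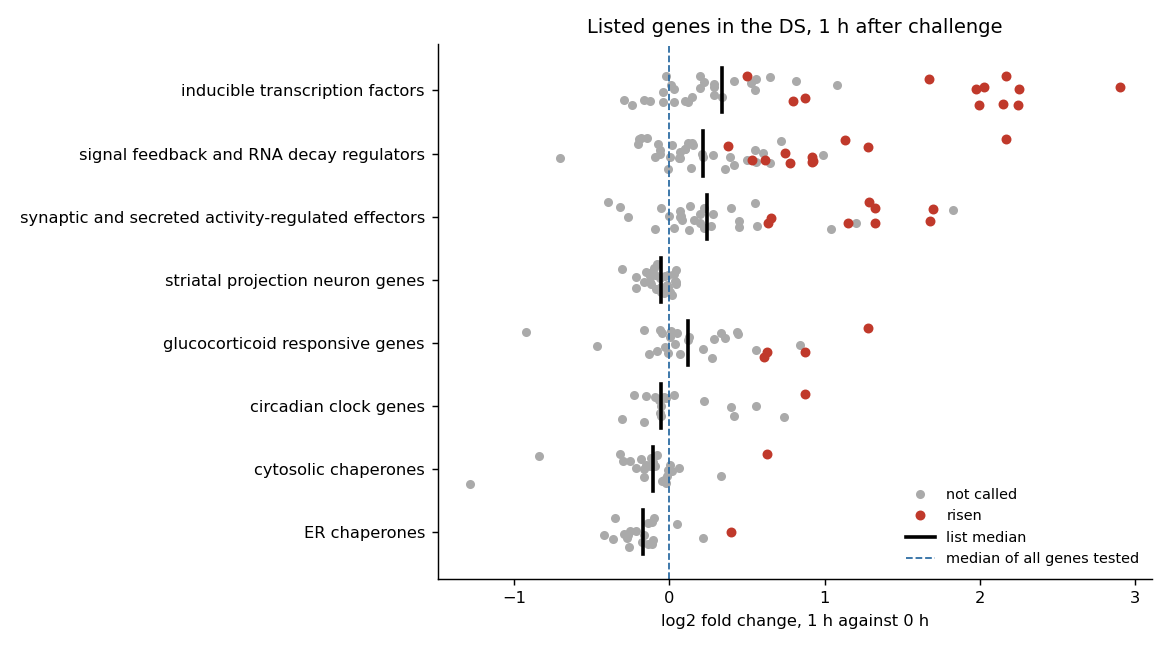
Log2 fold change at 1 hr against 0 hr in the DS for the tested members of 8 gene lists, with 1 point per gene, red where the gene rose and grey where it was not called; vertical black bars are list medians and the dashed line is the median of all genes tested, -0.0014. The 3 upper lists reach 2.90, 2.17 and 1.70 among their risen genes, and the striatal projection neuron genes lie close to 0.

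The other 20 risen genes were in no list and are named after their values were seen. They were Midn, Arl5b, Slc25a25, Shisa2, Kdm6b, Zfp948, Setd4, Mest, Siah2, Cwc25, Rnd3, Spty2d1, Irs2, Gpr19, Zdbf2, Peli1, Mcl1, Cyp51, Tspyl2 and R3hdm1. Slc25a25, a calcium-regulated mitochondrial carrier of ATP-Mg and phosphate, was at 57.1, 59.4 and 51.4 CPM at 0 hr and at 120, 121, 117 and 110 CPM at 1 hr. The 2 groups were each tight and far apart, 2.09-fold (interval 1.82 to 2.4, edgeR adjusted p = 3.89e-09). Irs2, an adaptor of insulin receptor signaling, was at 83.2, 84.8 and 59.2 CPM at 0 hr and at 146, 129, 132 and 107 CPM at 1 hr, 1.69-fold higher. Kdm6b, a demethylase of histone H3 lysine 27, rose by 1.02 ± 0.19 (SE), and Midn, whose product carries substrates to the proteasome, by 1.18 ± 0.16 (SE). Mcl1, an antiapoptotic BCL2 family gene, and Cyp51, an enzyme of cholesterol synthesis, rose by 0.52 and 0.47 and lost the call without 1 hr replicate 4.

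Genes that define the projection neurons did not pass the test. Of 29 tested striatal projection neuron genes 0 were called by edgeR or by DESeq2, 0 were higher and 1, Sp9, lower at an unadjusted p under 0.05, and the median was -0.05. Of the 29, 7 were positive, compared with 6277 of all 12641 genes tested. Drd1, the D1 dopamine receptor gene, was at 403, 371 and 409 CPM at 0 hr and at 367, 333, 349 and 392.3 CPM at 1 hr, a fold of 0.915 with an interval of 0.824 to 1.02. Drd2, the D2 receptor gene, was at 253, 278 and 244 CPM at 0 hr and at 251, 267, 268 and 241 CPM at 1 hr, a fold of 0.994 with an interval of 0.899 to 1.1. Both intervals exclude a rise of 1.2-fold, while a decrease of 1.2-fold lies inside the interval of Drd1 and outside that of Drd2. The neuropeptide genes of the same neurons, Penk, Tac1 and Pdyn, had log2 differences of 0.03, 0.13 and 0.27 and edgeR adjusted p-values of 0.998, 0.931 and 0.677. None of the 12 lists of markers of other cell types held a called gene by edgeR or DESeq2. Their median log2 differences lay between -0.18, for the choroid plexus and the ependymal lists, and 0.45, for the erythroid and neutrophil list. Interneuron markers summed to 797 to 915 CPM at 0 hr and 857 to 1038 CPM at 1 hr, endothelial and mural markers to 1037 to 1096 and 1095 to 1153 CPM, and microglia markers to 1129 to 1271 and 1174 to 1290 CPM. Oligodendrocyte markers summed to 7560 to 8547 and 7456 to 8501 CPM and astrocyte markers to 3503 to 3640 and 3573 to 3611 CPM. Choroid plexus, ependymal, pallidal and meningeal lists overlapped between the groups as well. Of the 7 neutrophil markers on the list, none of which passed the filter on low counts, Retnlg, Camp and Ltf had 0 counts in the 7 libraries, and S100a8, S100a9, Ngp and Lcn2 were detected, Ngp under 1 CPM throughout.

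Most of the risen genes stood highest at 1 hr. The mean level was highest at 1 hr in 48 of the 56 genes, and the 8 with a higher mean at 2 hr were Nr4a3, Fosb, Mest, Irs2, Dusp14, Cdkn1a, Zdbf2 and Peli1. For Nr4a3 and Fosb 1 library decided this, since without 2 hr replicate 2, left out after the values were seen, the 2 hr mean was 90.1 CPM for Nr4a3 and 58.8 CPM for Fosb, below their 1 hr means of 100.7 and 69.1 CPM. Tested directly between 2 hr and 1 hr, 14 of the 56 were called lower at 2 hr, where the background over all genes was 0.142%, and none was called higher, with a background of 0.0396%. The count of 48 and this contrast both reuse the 1 hr libraries that chose the genes. A part of the peak at 1 hr and of the decline is therefore set by the choice. The share of all genes with their highest mean at 1 hr was not counted. Fos was at 13, 11.6, 21.6 and 12.3 CPM at 2 hr, and Junb at 247, 235, 290 and 258 CPM, both within or near the range of the abstinent mice. Nr4a3 in contrast was at 87.9, 140, 95.7 and 86.8 CPM at 2 hr and at 24 to 32.0 CPM at 4 hr. Fosb was at 53.1, 120, 67.2 and 56.2 CPM at 2 hr and at 32.7 to 65.2 CPM at 4 hr, still above the 13.1 to 19.6 CPM of 0 hr. Against the same 0 hr mice, the median log2 difference of the 56 genes was 0.44 at 2 hr and 0.10 at 4 hr, and at 4 hr the mean lay below the 0 hr mean in 16 genes.

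Second libraries of some of these mice, 2 at 0 hr and 2 at 1 hr from another run, gave a technical repeat. Of the 56 genes 55 could be tested there and all 55 were higher at 1 hr, with a median log2 fold change of 0.81. With 2 libraries a group, 14 were called by edgeR. Fos had a log2 fold change of 3.38 there, Junb 2.20, Egr2 1.83 and Arc 1.60. Since the animals are the same, these values bear on technical repeats and not on differences between mice. The labels name the run and do not say whether the library was also prepared anew.

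The same 1 hr against 0 hr contrast was available in the DS after an acute first dose and after the fifth of 5 daily doses, in other mice. The 0 hr mice were naive for the acute dose and had received cocaine the day before for repeated doses. Those of the challenge were 21 days abstinent. Acute and repeated values came from a joint fit of the 48 DS libraries of 3 experiences. The 56 genes and their log2 fold changes after challenge came from the fit of the challenge libraries alone. After the acute dose 44 of the 56 genes were called higher (78.6%), where 0.697% of 12918 genes were and 0.348% were called lower, with a median log2 fold change of 1.18 and 54 of 56 positive. After repeated doses, which the labels call chronic, 29 of 56 were called higher (51.8%), where 0.24% of all genes were and 0.0232% were called lower, with a median of 0.78 and all 56 positive. The 2 genes that were negative after the acute dose were Atf3 and Cdkn1a, the gene of the cell cycle inhibitor p21. A single naive library, acute 0 hr replicate 1, was high in both, with Cdkn1a at 121 CPM where the other naive mice held 21 to 32.2 CPM, and Atf3 at 8.91 CPM where they held 0.322 to 2.14 CPM. Without that library, chosen after its values were seen, both were positive, at 0.70 ± 0.14 (SE) for Cdkn1a and 0.80 ± 0.89 (SE) for Atf3, and 43 of the 56 genes were called.

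The difference in induction was tested as an interaction. By edgeR 0 genes were induced more and 0 less after challenge than after the acute dose, and DESeq2 gave 0 and 0. At an unadjusted p under 0.05, 368 genes were higher and 308 lower, and the lowest edgeR adjusted p over all genes was 0.251. Among the 56 genes, 18 were induced more after challenge and the median difference was -0.20 on the log2 scale, with 3 higher and 9 lower at an unadjusted p under 0.05. Since the 56 were selected for a rise after challenge, that choice favours the challenge in this comparison. The count was sensitive to the naive mice, with 12 genes higher and 3 lower without acute 0 hr replicate 4 and 6 and 1 without replicate 3. Egr2 had the largest gap among the EGR genes. Its log2 fold change was 3.36 ± 0.25 (SE) after the acute dose and 2.91 ± 0.28 (SE) after repeated doses in the joint fit. After challenge it was 2.15 ± 0.19 (SE) in the fit of the challenge libraries alone. Its levels at 1 hr were 153 to 202 CPM after the acute dose, 52.2 to 94.7 CPM after repeated doses and 102 to 144 CPM after challenge, and at 0 hr 7.2 to 23.6, 8.31 to 12.4 and 14.5 to 37.0 CPM, in the scaling of all 48 DS libraries. The difference between challenge and acute was -1.21 (interval -1.92 to -0.51) with an edgeR adjusted p of 0.49. Acute 0 hr replicate 1, left out above, was the lowest naive library for Egr2. Without it the acute rise of Egr2 was 3.08 ± 0.26 (SE), and the difference was -0.93 ± 0.35 (SE, edgeR adjusted p = 0.9994). Rnd3, singled out after its values were seen, rose by 2.07 after the acute dose and 0.80 after challenge, a difference of -1.28 (interval -1.95 to -0.60, edgeR adjusted p = 0.33), and its 0 hr level was 3.57 to 15.1 CPM in naive mice and 26.9 to 33.9 CPM in abstinent mice. Without acute 0 hr replicate 1 the Rnd3 difference was larger, at -1.54 ± 0.37 (SE, edgeR adjusted p = 0.43). Junb was induced alike in size, 2.21 and 2.17, with an interval of the difference from -0.52 to 0.42. The interval of the difference for Fos was wider, from -0.87 to 1.15.

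Against repeated doses 0 genes were induced more and 0 less by edgeR and by DESeq2, 210 were higher and 225 lower at an unadjusted p under 0.05, and the lowest adjusted p was 0.9999. The median difference of the 56 genes was 0.08. The acute libraries were sequenced in another run than the challenge and repeated libraries, and the part of the run in the difference was not tested beyond the second libraries. Each experience also came from its own cohort or cohorts of mice, and challenged mice were older when sampled by the days of dosing and abstinence. The codes of the repeated mice name more than 1 cohort, and the fit had no term for cohort. Experience, cohort and age cannot be told apart, in the second libraries as well. In the second libraries, all 3 experiences in 1 run with 2 mice a group, 0 genes were higher or lower between challenge and acute.

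**Figure D4:**
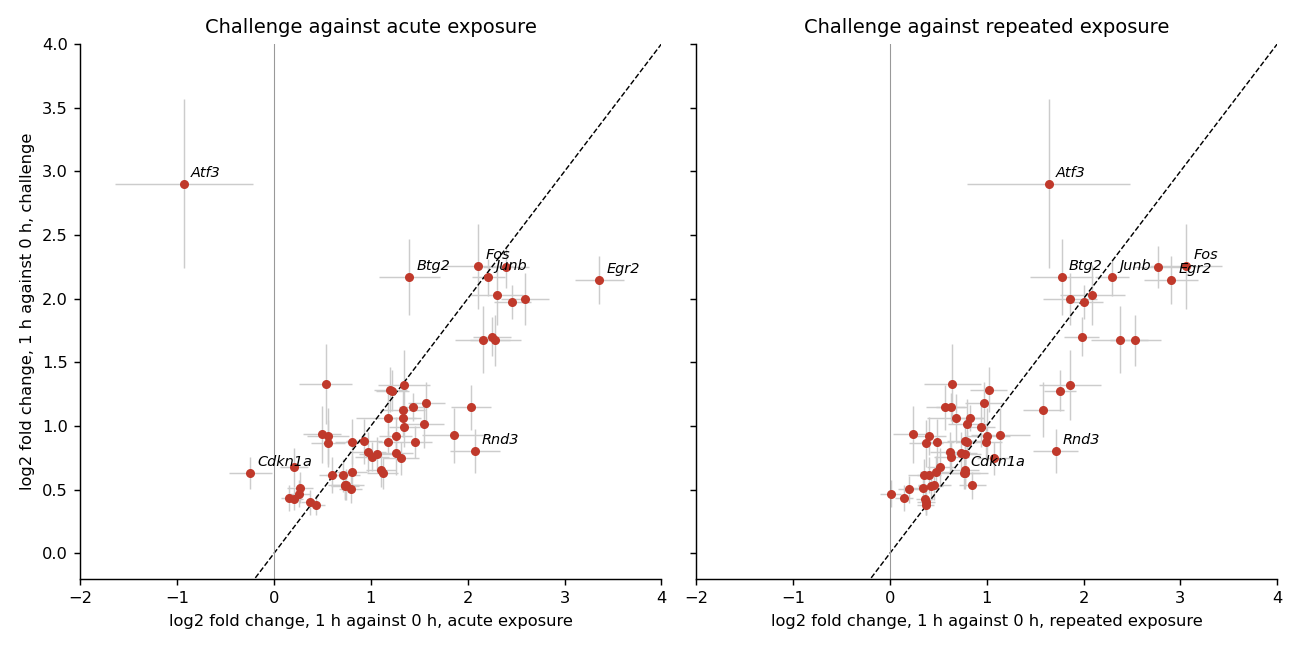
Log2 fold change at 1 hr against 0 hr of the 56 genes in the DS after challenge (vertical axes) plotted against the acute dose (left) and against repeated doses (right), with bars of ± 1 SE and a dashed line of equality. Challenge values come from the fit of the challenge libraries alone, and the others from the joint fit of the 3 experiences. Most genes are positive on both axes; Egr2 and Rnd3 lie below the line and Atf3 and Cdkn1a sit left of 0 in the acute panel, at -0.93 and -0.25.

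The same contrast was fitted in other structures of challenged mice. In the nucleus accumbens (NAc, 4 libraries at 1 hr against 2 at 0 hr) 4 genes rose (0.0321%), which were Atf3, Fos, Egr4 and Fosb, all among the 56. In the limbic cortex (LCtx, 4 against 2) 3 rose (0.0246%), Arl4d, Junb and Egr4, again all among the 56. In the amygdala (Amy, 4 against 3) 11 rose (0.0895%), of which Fos, Btg2, Junb, Fosb, Arc, Dusp1, Gadd45b and Arl4d were among the 56 and Npas4, Arid5a and Ppp1r3g were not. No gene fell in the 3 structures by edgeR or by DESeq2, and 289, 164 and 149 genes were lower at an unadjusted p under 0.05 in the NAc, LCtx and Amy. The median log2 fold change of the risen DS genes was 0.33 in the NAc (48 of 56 positive), 0.34 in the LCtx (49 of 55) and 0.31 in the Amy (49 of 55), while the medians over all genes were 0.0035, 0.0048 and 0.00047. Fos rose by 2.16 ± 0.29 (SE) in the NAc, close to its 2.25 ± 0.33 (SE) in the DS. Atf3 rose by 4.15 ± 0.64 (SE) in the NAc. Egr2 was at 1.19, 1.55 and 1.71 in the NAc, LCtx and Amy and was not called there. Slc25a25, which rose by 1.06 in the DS, was at 0.12, 0.19 and -0.00 in the other structures. The difference between structures was not tested, the structures carry the same animal numbers and may come from the same mice, and the DS genes were chosen for their rise in the DS.

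These counts in the other structures rested on few libraries, which came from 2 runs. With the run as a covariate 9, 7 and 17 genes rose in the NAc, LCtx and Amy. Leaving out 0 hr replicate 1 gave 2 in the NAc. In the LCtx, 0 rose without 0 hr replicate 1 and 0 without 0 hr replicate 2. Each of these fits left 1 library at 0 hr, which was assumed to vary like the other time points. In the LCtx 1 rose without 1 hr replicate 1 or without replicate 3, and 5 without 1 hr replicate 4. In the Amy, leaving out 0 hr replicate 1 or 3 gave 2 and 1, and leaving out 1 hr replicate 1, 3 or 4 gave 1, 3 and 7.

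**Figure D5:**
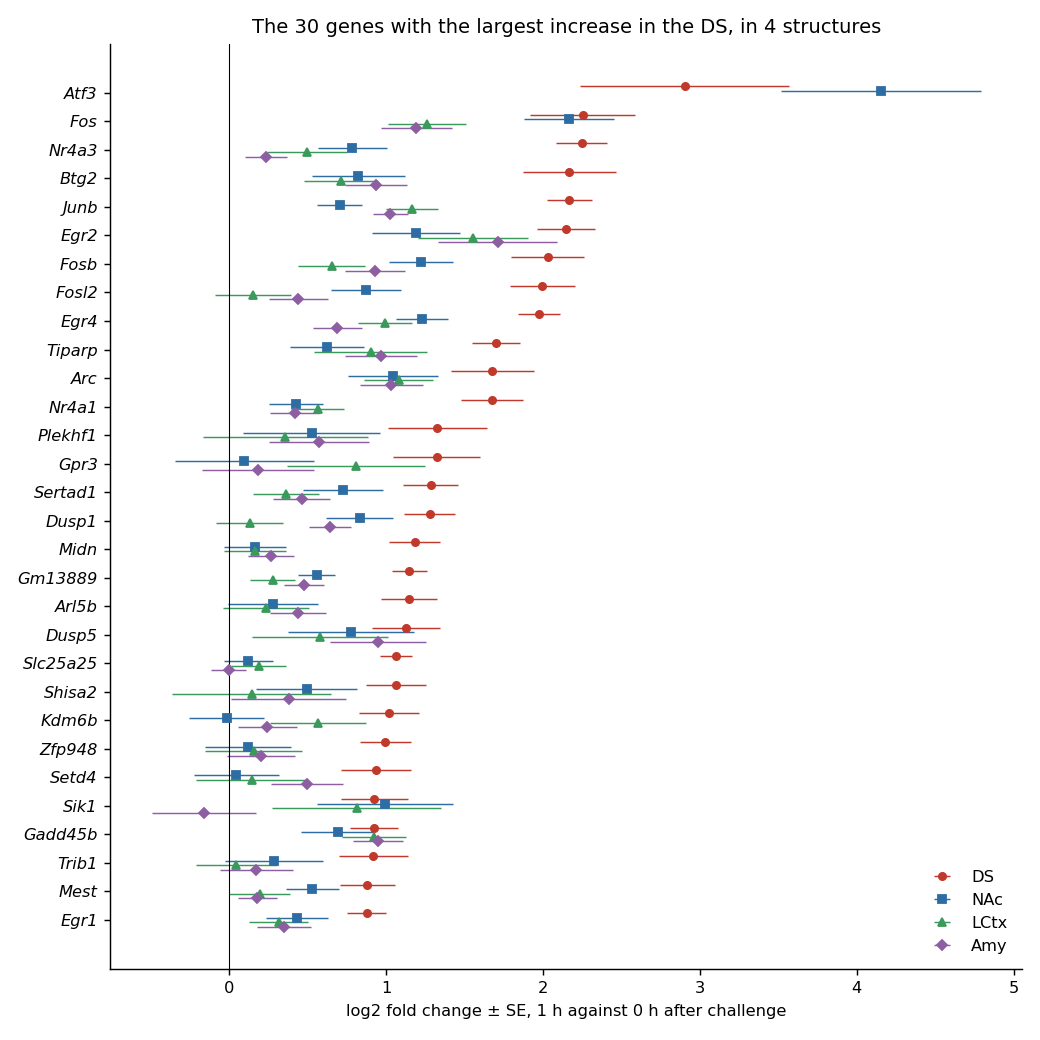
Log2 fold change ± SE at 1 hr against 0 hr after challenge for the 30 genes with the largest increase in the DS, in the DS (circles), NAc (squares), LCtx (triangles) and Amy (diamonds). The DS values lie to the right of the others for most genes; Atf3 is larger in the NAc, at 4.15, and has no value in the LCtx and Amy.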

How the data were processed

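The authors took DS tissue from 400 µm coronal slices, made 3′-RNA-seq libraries with 8-base unique molecular identifiers (UMIs), removed duplicates by UMI, trimmed polyA tails, aligned to GRCm38 with STAR and counted reads per gene with HTSeq. They deposited whole-number counts for 19363 genes in 194 libraries, not normalized. The study's methods describe down-sampling of libraries with many reads, and whether the deposited counts include that step was not tested. The gene annotation and strand setting are not given in the sources used here, so overlapping genes cannot be told apart. The labels give an animal code to each DS challenge library, some mice have a second library from another run, and each fit used 1 library a mouse unless it is named as using both, so p-values measure the spread between these mice.

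Here counts were filtered with filterByExpr, scaled by TMM and fitted with edgeR 4.0.16 in R 4.3.3 (quasi-likelihood F test), with 1 term for each time. The design had 3, 4, 4 and 4 libraries at 0, 1, 2 and 4 hr, 1 a mouse. P-values were adjusted by the Benjamini-Hochberg method across the whole table, and calls needed an adjusted p under 0.05 and a fold over 1.2. DESeq2 1.42.0 was an alternative. Interactions came from 1 fit of 48 DS libraries of 3 experiences. Intervals are 95%. Replicates within a group differed more than counting noise (chi-square per degree of freedom 2.35 to 3.18), so none was treated as a copy. The 15 libraries held 2930082 to 10367769 counts, and low counts limit the precision of genes near 1 CPM. The fits were checked on simulated counts, where smaller changes were recovered less often than larger ones, and less often in the interaction with the acute dose than between 1 hr and 0 hr, so a count of 0 does not show that no gene differed.

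The genes named were the 15 with the largest increase and 10 with the largest decrease among called genes, called members of the lists, Arc, Egr2, Egr4, Fos, Fosb, Nr4a1, Junb, Drd1 and Drd2, the 3 largest called genes each way in the interactions, and list markers that were called or near 0. Others are marked or stand beside them as members of the same family. The genes, lists and tests were chosen with earlier results of these data known. Coordinates of genes are those of GENCODE M21 on GRCm38, and promoters are from RefSeq on GRCm38.p6. Alternatives were RLE scaling, DESeq2, no filter, fewer libraries, summed runs, thinned counts, a fold over 1.5, a replicate block, a run covariate and leaving out each replicate.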

Additional observations from a re-analysis of the deposited data

Results flagged for a closer look

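Of 76 genes and list sums tested over the 4 libraries at 1 hr, 6 held a library whose gap to the nearest other exceeded Dixon's 95% critical value for 4 samples, and chance alone gives about 5% of groups. Replicate 2 was high in Nr4a1, at 677 CPM where the others held 530 to 547 CPM, and in Dusp1, at 146 CPM where the others held 81.9 to 89.6 CPM. It was low in Sgk1, at 145 CPM where the others held 167 to 169 CPM. Zfp948 was high in replicate 1, at 46.4 CPM against 34.6 to 35.5 CPM, and Rgs2 in replicate 4, at 651 CPM against 599 to 608 CPM. The class II and macrophage marker list summed to 231 CPM in replicate 4 and to 71.0 to 78.9 CPM in the other 3 libraries. Replicate 4 was already known to be high in class II genes when this list was examined, so this value restates that observation and is no part of a chance rate.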

How the results depend on the processing

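All 56 genes kept a positive log2 fold change under every one of the 18 alternatives in which they could be tested. Nr4a3, Junb, Egr2, Fosb, Fosl2, Egr4, Tiparp, Nr4a1, Dusp1, Egr1, Per1 and Irs2 were called in all 18, and 24 of the 56 were called whenever a single replicate was left out. The count that rose was 86 with no filter, 14 with only the second libraries and 29 to 55 over the fits without 1 replicate. The count that fell was 3 with no filter, 1 with only the 0 and 1 hr libraries, 1 with both runs summed, 1 without the deepest library (4 hr replicate 2, an alternative added after seeing the data) and 0 to 1 over the fits without 1 replicate. It was 2 with only the 0 and 1 hr libraries and without 1 hr replicate 4, also added after seeing the data, where 50 of the 56 genes kept the call. Called list members numbered 36, 13 in the second libraries and 21 to 35 without 1 replicate. Against the acute dose, no filter gave 23 genes higher and 7 lower, and leaving out 1 replicate gave 0 to 12 and 0 to 3. Against repeated doses, the second libraries gave 2 lower. With no filter 46 rose and 3 fell in the NAc, 13 rose in the LCtx, and 29 rose and 1 fell in the Amy. DESeq2 gave 8 in the NAc, and fits with the run as a covariate gave 9, 7 and 17 for NAc, LCtx and Amy. Leaving out 1 replicate gave 2 to 4 rising genes for the NAc, 0 to 5 for the LCtx and 1 to 11 for the Amy. The cause of these shifts was not tested. Replicate numbers share only a number, since the deviations of same-numbered libraries correlated at a median of 0.0208 (-0.0909 to 0.11 over 21 pairs). With the replicate block 60 genes rose and 0 fell in the DS, 5 rose in the LCtx and 20 in the Amy. At 3401994 to 4649668 counts a library, genes of few CPM such as Atf3, Plekhf1 and Gpr3 had wide intervals.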

Other observations

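The acute dose called 46 genes higher in the DS that were not called after challenge, among them Egr3, Bhlhe40, Nptx2, Homer1, Vegfa and Dnajb1, singled out after their values were seen. The count rested on single libraries, since it was 21 without acute 0 hr replicate 1, 20 of them among the 46, and 30 without acute 1 hr replicate 1, and it was 32 to 60 without each of the other 6 acute libraries in turn. Egr3, Bhlhe40, Vegfa and Dnajb1 were called in all 8 of these fits. Neither Nptx2 nor Homer1 was called without acute 0 hr replicate 1 or 2, or without acute 1 hr replicate 1 or 4. Nptx2 also lost its call without acute 0 hr replicate 4. Egr3 rose by 0.79 ± 0.12 (SE) after the acute dose and stood at 0.20 ± 0.12 (SE) after challenge in the joint fit of the 3 experiences, on the log2 scale, a difference of -0.59 ± 0.17 with an edgeR adjusted p of 0.418. Nptx2, a synaptic pentraxin, stood at 0.79 after acute and 0.55 after challenge, and Homer1, a postsynaptic scaffold, at 0.53 and 0.20. None of the 46 differences passed the test of the difference itself.

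The genes with the lowest p-values among those lower at 1 hr after challenge did not pass adjustment. Hsd17b12, an enzyme of fatty acid elongation, was at 76.6, 59.4 and 58.7 CPM at 0 hr and at 41.4, 36.8, 44.8 and 47.6 CPM at 1 hr (log2 difference -0.61, edgeR adjusted p = 0.0869), and Camsap1, a microtubule minus-end binder, was at 94.3, 98.2 and 94.5 CPM and then at 77.8, 77.2, 75.5 and 70.3 CPM (-0.35, edgeR adjusted p = 0.0966). In both genes every 1 hr library was below every 0 hr library, as in 437 genes of all tested (3.46%).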
